A study of Homo sapiens with 9 samples.

Results

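The 47 genes described here encode proteins that act in G2 and mitosis. They were taken by symbol from a list of such genes by a rule that reads no measured value, although the list was chosen with earlier results of these data known. They are 47 of the 58237 GENCODE 29 genes to which the deposited reads of the series could be assigned, and all 47 passed the filter on low counts that left 18205 genes to test. They were measured by RNA-seq in H358, an established line from a human non-small cell lung cancer, in 3 genotypes with 3 libraries each. The first genotype was a CRISPR knockout of SMARCA4, the gene of the chromatin remodelling ATPase BRG1, and the second a CRISPR knockout of SMARCA2, the gene of its paralog BRM. The third was the parental H358 line, which carries neither knockout. All cells grew in RPMI medium with fetal bovine serum and received no labelled treatment. The labels do not say whether a knockout was a clone or a pool, or whether the libraries of a genotype came from separate cultures. The p-values therefore measure the spread between these libraries, which may be technical.

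Cells entering mitosis activate CDK1 with cyclins A and B, condense their chromosomes, build a spindle and hold anaphase back through the spindle checkpoint until every kinetochore is attached. The anaphase promoting complex with CDC20 then marks securin and cyclin B for destruction, separase cuts cohesin, and the central spindle and the contractile ring divide the cell. Transcripts of these genes rise in G2, when B-MYB and FOXM1 join the MuvB core at their promoters, and stay low in resting cells, where MuvB belongs to the repressive DREAM complex. In bulk RNA, a smaller share of cells in G2 and mitosis and less of these transcripts per cell cannot be told apart.

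The libraries held between 31969961 and 40679073 estimated reads, and the mitosis genes took 0.202 to 0.423% of the reads in BRG1 knockout, 0.0472 to 0.162% in BRM knockout and 0.573 to 0.802% in parental libraries. SMARCA4 stood at 21.2 to 23.9 CPM (read counts scaled to library size with TMM factors) in BRG1 knockout, 239.8 to 249 CPM in BRM knockout and 212 to 244 CPM in parental libraries. SMARCA2 stood at 9.36 to 12.0 CPM in BRM knockout, 32.02 to 61.3 CPM in BRG1 knockout and 49.3 to 58.0 CPM in parental libraries. Each genotype held 1 library that stood apart in the mitosis genes. BRG1 knockout replicate 3 was the highest of its genotype for 43 of the 47 genes, BRM knockout replicate 2 was the highest of its genotype for 46, and parental replicate 1 was the lowest of its genotype for 45. Summed over 9 lung epithelial markers, the level was 422 to 1177 CPM in BRG1 knockout, 4879 to 5738 CPM in BRM knockout and 5200 to 5450 CPM in parental libraries, with SFTPB and SFTPC under 1 CPM in every library and NKX2-1 under 1 CPM in every BRG1 knockout library. Summed over 8 fibroblast markers, it was 396 to 1034 CPM in BRG1 knockout, 82.6 to 127 CPM in BRM knockout and 32.3 to 63.4 CPM in parental libraries, with DCN under 1 CPM throughout. Of the 7 fibroblast markers tested, 6 had positive log2 changes in BRG1 knockout, whereas 5 had negative ones in BRM knockout. COL3A1, PDGFRA, PDGFRB and THY1 were under 1 CPM in every BRM knockout library, and COL1A2 in every BRG1 knockout library. Blood markers summed to 9.99 to 13.5 CPM in BRG1 knockout, 18.4 to 58.5 CPM in BRM knockout and 16.2 to 22.4 CPM in parental libraries, with PTPRC and CD3E under 1 CPM throughout. Endothelial markers summed to 4.76 to 5.06 CPM in BRG1 knockout, 48.2 to 75.6 CPM in BRM knockout and 5.19 to 9.67 CPM in parental libraries, with CDH5 and TEK under 1 CPM throughout. PECAM1 was also under 1 CPM in every BRM knockout library, and there 3 of the 5 endothelial markers had positive and 2 negative log2 changes. The part of the markers that moved with genotype in the results on mitosis genes was not tested.

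Mitosis genes are known for short promoters in which a cell cycle homology region, with the core TTTGAA or TTCGAA, lies close to the start of transcription and downstream of CCAAT boxes, the motif of NF-Y. RefSeq promoter windows of build GRCh38.p14, from 250 bases before the start to 50 bases after it, were available for 41 of the 47 genes, matched by symbol. Printed below are the last 120 bases before the start for 7 of them, read 5′ to 3′ along the gene. The first 5 show the core with CCAAT, and CENPF and NEK2 show CCAAT boxes with no core in these bases. Capitals mark TTTGAA or TTCGAA and CCAAT on either strand, so that TTCAAA and ATTGG are the same letters on the other strand.
MKI67 (chr10:128126424-128126543, minus strand): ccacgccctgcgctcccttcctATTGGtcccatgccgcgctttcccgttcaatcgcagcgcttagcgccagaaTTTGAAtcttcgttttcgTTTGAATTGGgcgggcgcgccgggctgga
KIF11 (chr10:92593010-92593129, plus strand): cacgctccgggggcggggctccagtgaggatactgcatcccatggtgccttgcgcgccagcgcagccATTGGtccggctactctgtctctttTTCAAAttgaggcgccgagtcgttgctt
KIF4A (chrX:70289984-70290103, plus strand): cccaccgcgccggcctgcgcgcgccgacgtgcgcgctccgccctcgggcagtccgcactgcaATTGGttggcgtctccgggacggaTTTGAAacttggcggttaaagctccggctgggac
ESPL1 (chr12:53268179-53268298, plus strand): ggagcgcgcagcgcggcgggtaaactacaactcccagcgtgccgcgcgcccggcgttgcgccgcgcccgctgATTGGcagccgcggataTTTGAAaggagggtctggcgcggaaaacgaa
CDC20 (chr1:43358861-43358980, plus strand): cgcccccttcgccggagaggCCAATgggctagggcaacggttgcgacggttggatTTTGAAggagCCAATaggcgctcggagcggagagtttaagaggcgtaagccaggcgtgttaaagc
CENPF (chr1:214603075-214603194, plus strand): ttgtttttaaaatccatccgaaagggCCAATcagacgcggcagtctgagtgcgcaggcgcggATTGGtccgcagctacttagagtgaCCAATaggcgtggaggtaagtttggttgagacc
NEK2 (chr1:211675622-211675741, minus strand): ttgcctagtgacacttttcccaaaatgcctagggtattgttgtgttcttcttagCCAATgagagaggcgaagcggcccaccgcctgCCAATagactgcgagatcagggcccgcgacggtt

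The core was found in 29 of the 41 windows, or 70.7% (95% exact binomial interval 54.5 to 83.9%), against 16.6% of all 27303 promoter windows and 11.6% of the 11826 windows of genes tested here. CCAAT was found in 32 of the 41 windows, or 78.0% (62.4 to 89.4%), against 35.7% of all windows, and 20 of the 41 held at least 2 copies. The E2F type letters TTGGCGC or TTCGCGC or TTCCCGC or TTGCCGC were found in 12 of the 41 windows, or 29.3% (16.1 to 45.5%), against 13.1% of all windows and 19.8% of those of genes tested here. Both strands were searched in each case. Neighbouring matches can share letters, as the core and CCAAT of MKI67 do at base -24. In KIF11, a spindle motor gene, the core lay at bases -28 to -23 and CCAAT at -53 to -49, and in ESPL1, which encodes separase, they lay at -31 to -26 and -48 to -44. Within 40 to 5 bases before the start, 14 genes had a core, and 24 had the core and CCAAT somewhere in the window. A match is a stretch of letters and not a measured binding site. Distances also depend on the RefSeq start used for each gene. For PLK1, HMMR and PRC1, which are among the 14, all 120 bases before that start lie in GENCODE 29 exons of the gene. The same holds for CCNB1, MAD2L1 and NUSAP1.

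**Figure D1:**
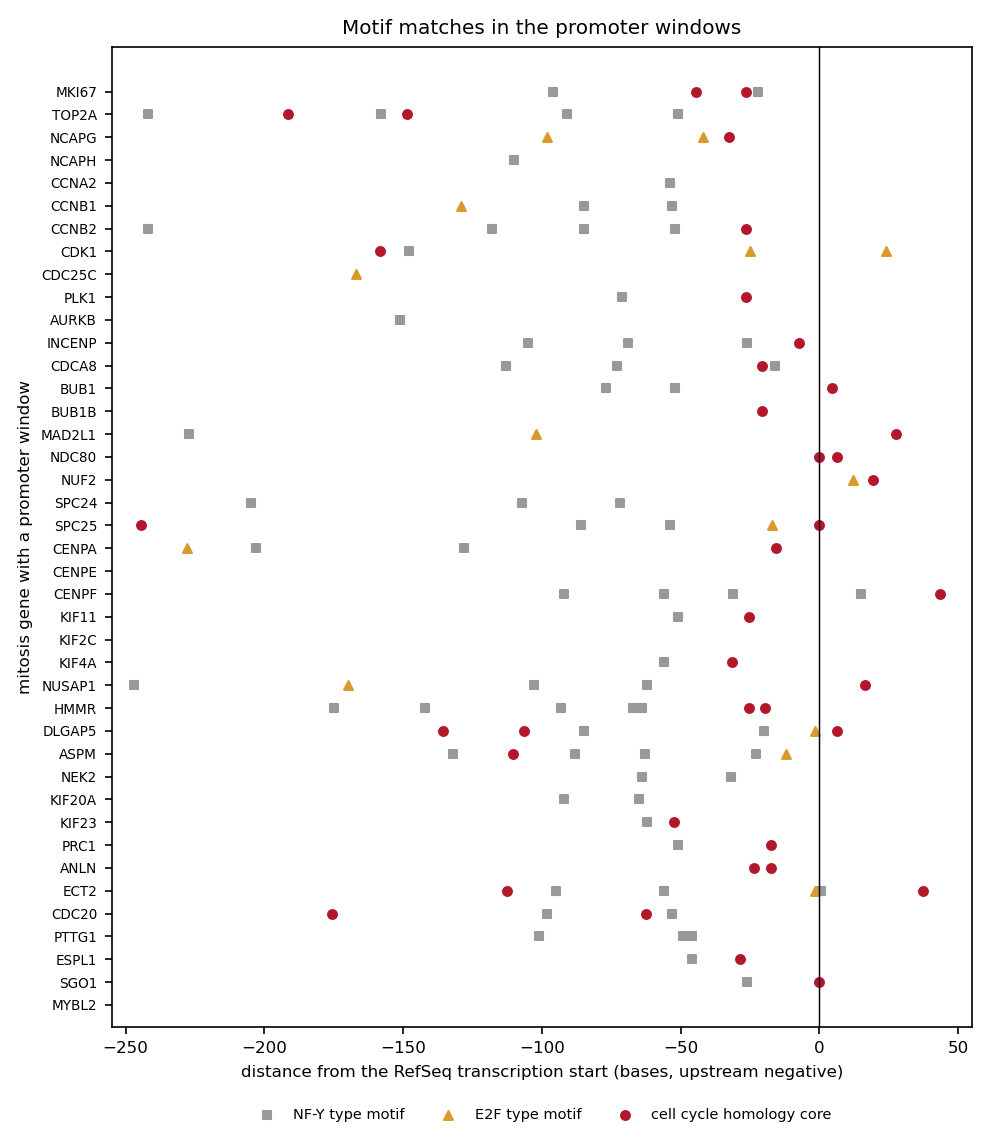
Position of each motif match (markers) in the RefSeq promoter window of 41 mitosis genes (rows), as distance from the transcription start in bases with upstream negative. Circles are the cell cycle homology core, squares the NF-Y type motif and triangles the E2F type motif; 29 genes have a core and 14 of them have it within 40 to 5 bases before the start.

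Summed per library, the 47 genes stood at 1986, 2644 and 4301 CPM in BRG1 knockout libraries and 482, 1641 and 486 CPM in BRM knockout libraries, against 5625, 7816 and 7357 CPM in parental libraries. No knockout library reached the lowest parental library, and BRM knockout replicate 2 came closest to the BRG1 knockout range. As a share of the parental mean, the BRG1 knockout libraries held 28.6, 38.1 and 62.0% and the BRM knockout libraries 6.95, 23.7 and 7.01%. The mean over libraries was 2977 ± 1193 CPM in BRG1 knockout and 869 ± 668 CPM in BRM knockout, against 6932 ± 1156 CPM in the parental line (SD, n = 3 each).

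**Figure D2:**
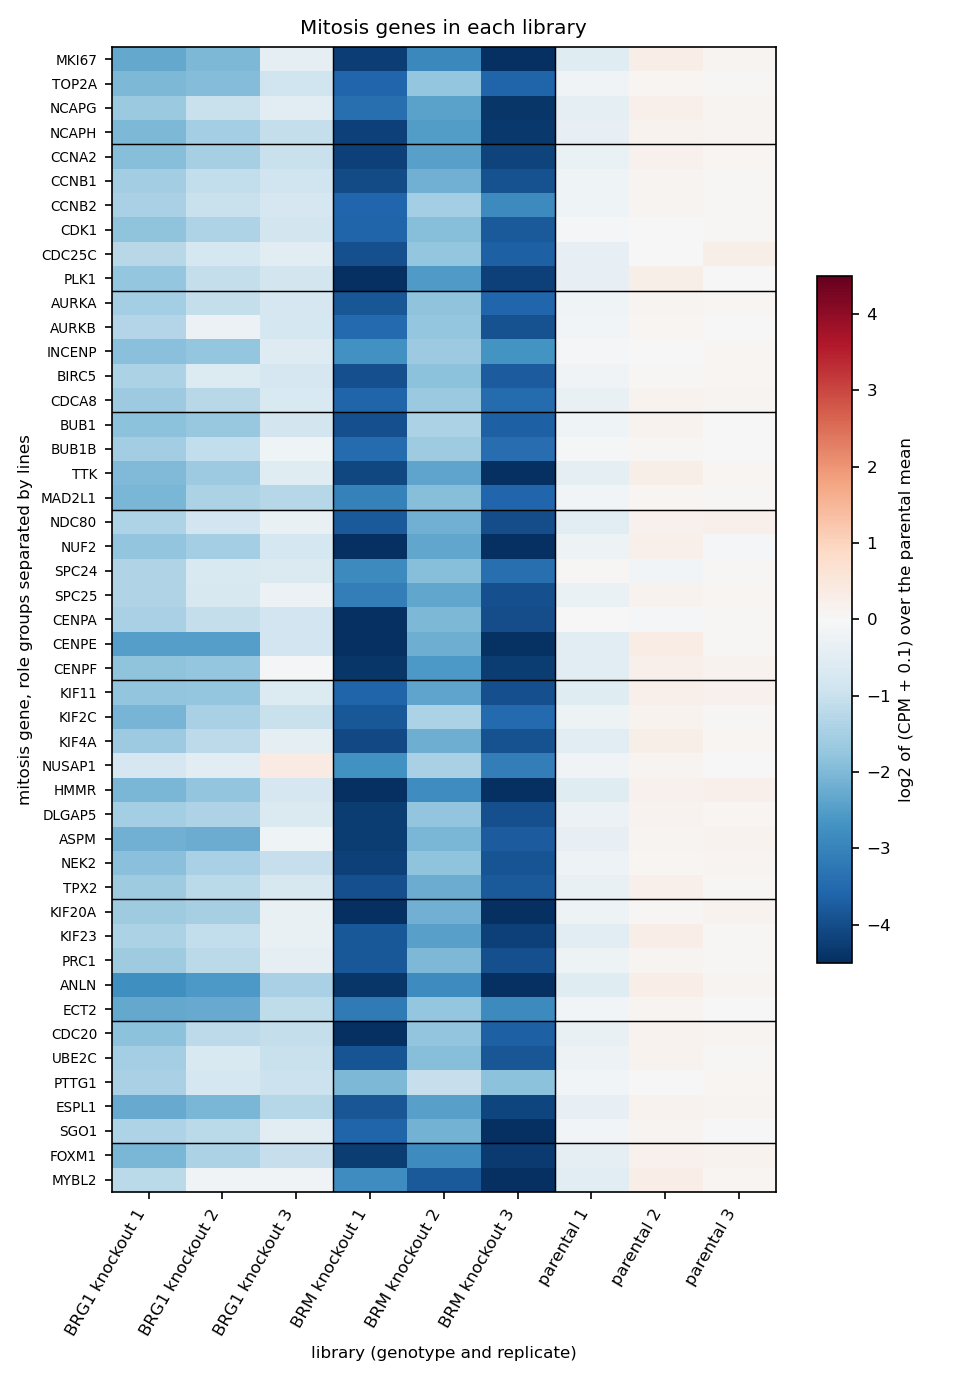
Level of each of the 47 mitosis genes (rows, role groups separated by lines) in each of the 9 libraries (columns), as the log2 of (CPM + 0.1) over the parental mean, blue for lower and red for higher. BRM knockout libraries 1 and 3 are the darkest columns, BRM knockout library 2 and the BRG1 knockout libraries lie between them and the parental ones, and BRG1 knockout library 3 is the palest of the knockouts.

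Which of these genes changed on loss of BRG1 was tested with edgeR's quasi-likelihood test, with Benjamini-Hochberg adjustment over all 18205 genes. In BRG1 knockout against parental cells 12 of the 47 genes fell, none rose and 35 did not pass an adjusted p of 0.05. At an unadjusted p under 0.05, 26 of the 47 were lower, with no share of all genes at that threshold to set beside it. Of all genes tested, 43.5% were called in either direction and 21.9% were called lower, so the count of 12 lies near the share of all genes. All 47 log2 changes were negative, with a median of -1.14 and a range of -2.15 to -0.20, while the median over all genes tested was -0.0083. In 38 of the 47 genes every BRG1 knockout library lay below every parental library, as it did for 27.1% of all genes tested. The genes that fell were TOP2A, NCAPH, CCNA2, CDK1, INCENP, MAD2L1, KIF11, ANLN, ECT2, PTTG1, ESPL1 and FOXM1. The count depended on which libraries set the spread. With the BRG1 knockout and parental libraries fitted without the BRM knockout libraries, 39 of the 47 genes were called, with 40.4% of all genes called in either direction. With BRG1 knockout replicate 3 as the only library of its genotype the median log2 change of the 47 genes was -0.75. Left out alone, parental replicate 2 gave 6 of the 47 (33.8% of all genes), parental replicate 3 gave 5 (32.8%) and BRG1 knockout replicate 1 gave 7 (34.9%). Leaving out BRG1 knockout replicate 2 gave 5 (40.4%) and replicate 3 gave 19 (47.3%), while BRM knockout replicate 1 gave 25 (41.4%) and replicate 2 gave 42 (42.6%).

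Which changed on loss of BRM was tested in the same fit. In BRM knockout against parental cells all 47 genes fell, with adjusted p between 0.000356 and 0.0108 by edgeR's quasi-likelihood test, where 37.4% of all genes tested were called, 21% higher and 16.4% lower. The median log2 change was -3.09, with a range of -3.85 in HMMR to -1.58 in PTTG1, against a median of 0.093 over all genes tested. Every BRM knockout library lay below every parental library in all 47 genes, as it did for 26.1% of all genes tested. The mean CPM of a gene in BRM knockout was 6.95 to 33.6% of its parental mean, with a median of 11.8%. In BRG1 knockout the same share was 22.6 to 87.0%, with a median of 45.3%. The comparisons of each knockout with the parental line share the 3 parental libraries.

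The knockouts were therefore also set directly against each other. In BRG1 knockout against BRM knockout 38 of the 47 genes were higher, none was lower and 9 did not pass (edgeR, adjusted p under 0.05), where 45.3% of all genes tested were called and 21.6% were called higher. The median log2 difference was 1.93, with a range of 0.53 in PTTG1 to 3.12 in MYBL2, against a median of -0.0016 over all genes tested. In 36 of the 47 genes every BRG1 knockout library lay above every BRM knockout library, as it did for 26.5% of all genes tested. The 9 genes that did not pass were TOP2A, INCENP, BUB1, CENPE, KIF2C, NEK2, ECT2, CDC20 and PTTG1. Without BRG1 knockout replicate 3, 24 of the 47 genes were called higher, with 47.8% of all genes called in either direction.

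**Figure D3:**
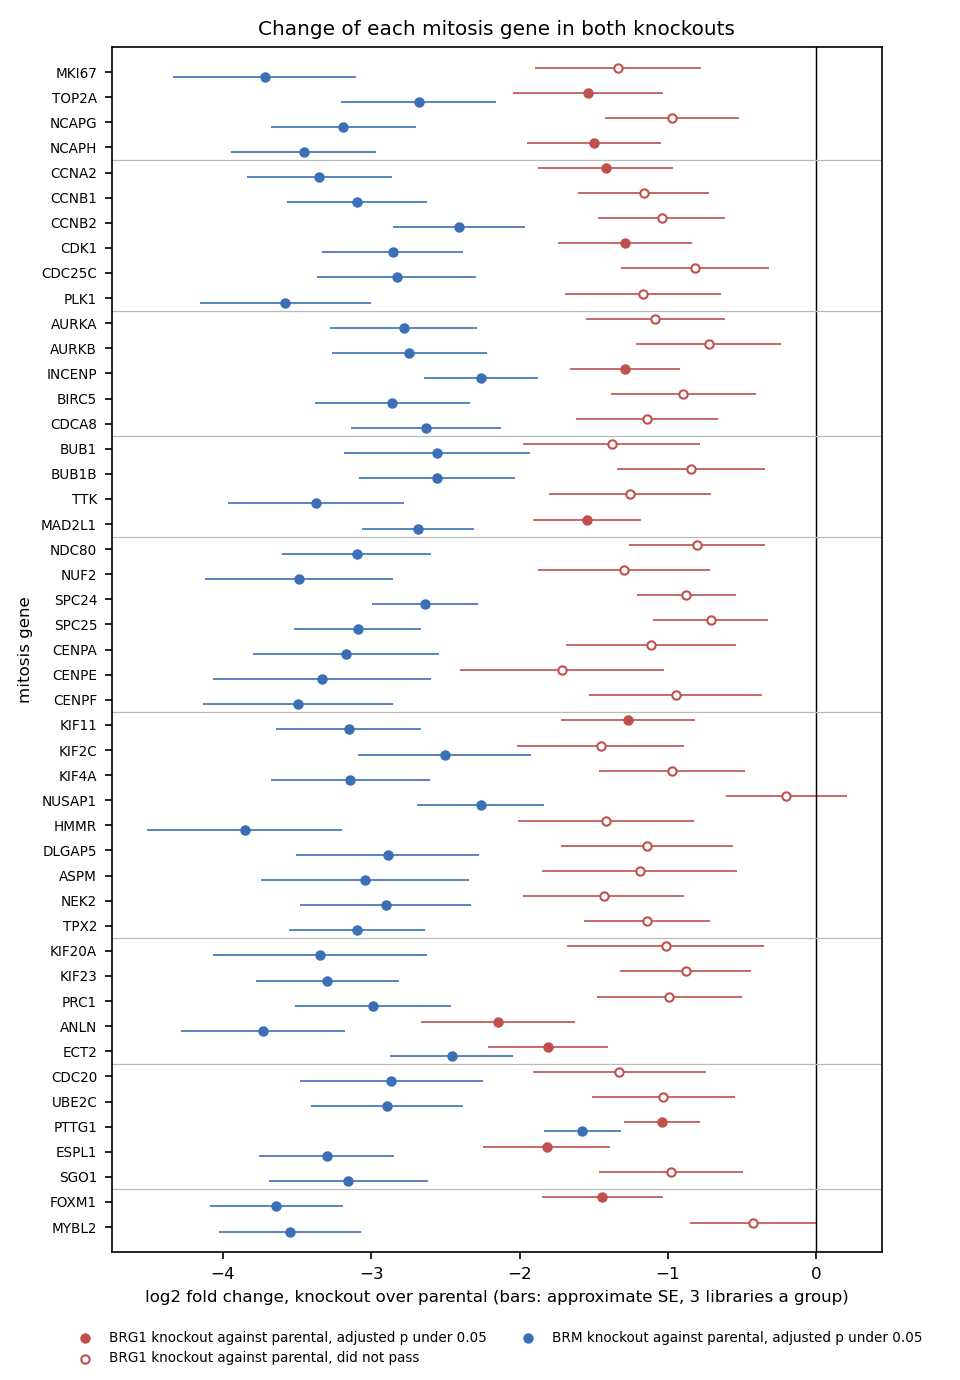
Log2 fold change of each of the 47 mitosis genes in BRG1 knockout (red) and BRM knockout (blue) over parental cells, with bars for the approximate SE from the edgeR fit and filled points for an adjusted p under 0.05. All 47 BRM knockout points are filled, 12 of the 47 BRG1 knockout points are filled, and for every gene the BRM knockout point lies farther below 0.

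Chromosome structure and the Ki-67 layer that coats mitotic chromosomes were represented by MKI67, TOP2A, NCAPG and NCAPH. All 4 fell in BRM knockout, and TOP2A and NCAPH fell in BRG1 knockout. MKI67 (ENSG00000148773.13, chr10:128096659-128126385, minus strand, GRCh38), the marker of cycling cells whose promoter is printed above, stood at 65.3, 79.1 and 236 CPM in BRG1 knockout libraries and 16.8, 42.9 and 13.3 CPM in BRM knockout libraries, against 221, 392 and 347 CPM in parental libraries. The third BRG1 knockout library lay inside the parental range, while the BRM knockout libraries did not overlap it. Its log2 change was -1.34 ± 0.56 (approximate SE) in BRG1 knockout with an adjusted p of 0.0814, and -3.72 ± 0.62 in BRM knockout with an adjusted p of 0.00168 (edgeR). TOP2A (ENSG00000131747.14), the topoisomerase that untangles sister chromatids, stood at 189.5, 198.5 and 412 CPM in BRG1 knockout libraries and 65.1, 234 and 63.5 CPM in BRM knockout libraries, against 695, 832 and 798 CPM in parental libraries. BRM knockout replicate 2 reached into the BRG1 knockout range, and neither knockout overlapped the parental libraries. The log2 change of TOP2A was -1.54 ± 0.50 in BRG1 knockout (edgeR, adjusted p 0.0322) and -2.68 ± 0.52 in BRM knockout (adjusted p 0.00349). NCAPH, a condensin subunit, changed by -1.50 ± 0.45 in BRG1 knockout (edgeR, adjusted p 0.0229).

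Mitotic entry was represented by the cyclins CCNA2, CCNB1 and CCNB2, their kinase CDK1, the phosphatase CDC25C that activates it and the kinase PLK1. All 6 fell in BRM knockout and were higher in BRG1 knockout than in BRM knockout, and CCNA2 and CDK1 fell in BRG1 knockout. CCNB1 (ENSG00000134057.14, chr5:69167010-69178245, plus strand, GRCh38), the cyclin that drives CDK1 at the G2 to M transition, stood at 84.1, 117 and 136 CPM in BRG1 knockout libraries and 15.5, 56.2 and 16.7 CPM in BRM knockout libraries, against 219, 272 and 264 CPM in parental libraries. The 3 genotypes did not overlap. Its log2 change was -1.16 ± 0.44 in BRG1 knockout, which did not pass (edgeR, adjusted p 0.0565), and -3.10 ± 0.47 in BRM knockout (adjusted p 0.00101). PLK1 (ENSG00000166851.14), the polo kinase of mitotic entry and spindle assembly, stood at 45.0, 71.1 and 84.6 CPM in BRG1 knockout libraries and 4.53, 25.4 and 7.996 CPM in BRM knockout libraries, against 116, 183 and 153 CPM in parental libraries. Again no genotype overlapped another, and BRM knockout replicate 2 was the highest of its genotype. PLK1 changed by -3.58 ± 0.58 in BRM knockout (edgeR, adjusted p 0.00141), and its value of -1.17 ± 0.52 in BRG1 knockout did not pass (adjusted p 0.099). The log2 change in BRG1 knockout was -1.42 ± 0.45 for CCNA2 (edgeR, adjusted p 0.0288) and -1.29 ± 0.45 for CDK1 (adjusted p 0.0414).

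The Aurora kinases and chromosomal passengers, which correct faulty attachments of chromosomes to the spindle, were AURKA, AURKB, INCENP, BIRC5 and CDCA8. All 5 fell in BRM knockout, and INCENP alone of the 5 passed the test in BRG1 knockout. BIRC5 (ENSG00000089685.14), which encodes survivin, stood at 78.6, 140.4 and 125 CPM in BRG1 knockout libraries and 13.6, 59.1 and 15.7 CPM in BRM knockout libraries, against 189.1, 222 and 229 CPM in parental libraries. The libraries of the 3 genotypes did not overlap. BIRC5 changed by -2.86 ± 0.52 in BRM knockout (edgeR, adjusted p 0.00249), whereas -0.90 ± 0.49 in BRG1 knockout did not pass (adjusted p 0.166). INCENP, the scaffold of the complex, changed by -1.29 ± 0.37 in BRG1 knockout (edgeR, adjusted p 0.0173), and its difference between BRG1 and BRM knockout of 0.97 ± 0.37 did not pass (adjusted p 0.0544).

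The spindle checkpoint genes were BUB1, BUB1B, TTK and MAD2L1. All 4 fell in BRM knockout, and MAD2L1 fell in BRG1 knockout. MAD2L1 (ENSG00000164109.13), whose protein inhibits CDC20 until kinetochores are attached, stood at 32.8, 50.7 and 56.1 CPM in BRG1 knockout libraries and 16.4, 35.7 and 11.5 CPM in BRM knockout libraries, against 123, 143 and 141 CPM in parental libraries. Both knockouts lay well below the parental libraries, and BRM knockout replicate 2 lay above the lowest BRG1 knockout library. Its log2 change was -1.54 ± 0.36 in BRG1 knockout (edgeR, adjusted p 0.00608) and -2.68 ± 0.38 in BRM knockout (adjusted p 0.000565). TTK (ENSG00000112742.9), which encodes the checkpoint kinase MPS1, stood at 18.8, 24.2 and 51.5 CPM in BRG1 knockout libraries and 4.32, 14.3 and 3.24 CPM in BRM knockout libraries, against 55.3, 90.6 and 79.4 CPM in parental libraries. BRG1 knockout replicate 3 came close to the lowest parental library. TTK changed by -3.37 ± 0.59 in BRM knockout (edgeR, adjusted p 0.00214), whereas -1.25 ± 0.55 in BRG1 knockout did not pass (adjusted p 0.0893). BUB1 differed between BRG1 and BRM knockout by 1.18 ± 0.60, which did not pass (edgeR, adjusted p 0.14).

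Centromeres and kinetochores, the protein platforms that bind spindle microtubules, were represented by NDC80, NUF2, SPC24, SPC25, CENPA, CENPE and CENPF. All 7 fell in BRM knockout. In BRG1 knockout their adjusted p lay between 0.0531 and 0.218 by edgeR, so that the 7 did not pass, where 21.9% of all genes were called lower. Their median log2 value was -0.95. CENPF (ENSG00000117724.12), a large kinetochore protein made in G2 and the gene with 3 CCAAT boxes in the letters above, stood at 105.5, 109.9 and 359.7 CPM in BRG1 knockout libraries and 17.8, 61.5 and 19.2 CPM in BRM knockout libraries, against 265, 437 and 408 CPM in parental libraries. BRG1 knockout replicate 3 again lay inside the parental range. CENPF changed by -3.50 ± 0.64 in BRM knockout (edgeR, adjusted p 0.00274), and BRG1 knockout exceeded BRM knockout by 2.55 ± 0.62 (adjusted p 0.00805). CENPE, a kinetochore motor, had a log2 fold change of -1.71 ± 0.69 in BRG1 knockout, which did not pass (edgeR, adjusted p 0.0694).

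Spindle motors and assembly factors formed the group of most members, with KIF11, KIF2C, KIF4A, NUSAP1, HMMR, DLGAP5, ASPM, NEK2 and TPX2. All 9 fell in BRM knockout, and KIF11 fell in BRG1 knockout, with a log2 change of -1.27 ± 0.45 (edgeR, adjusted p 0.0451). TPX2 (ENSG00000088325.15), which activates Aurora A on the spindle, stood at 129.6, 168 and 235 CPM in BRG1 knockout libraries and 25.3, 83.6 and 28.5 CPM in BRM knockout libraries, against 311, 459 and 404 CPM in parental libraries. Its genotypes did not overlap. TPX2 changed by -3.10 ± 0.46 in BRM knockout (edgeR, adjusted p 0.000819), whereas -1.14 ± 0.43 in BRG1 knockout did not pass (adjusted p 0.0531). HMMR (ENSG00000072571.19), a spindle pole protein, stood at 26.3, 32.5 and 65.5 CPM in BRG1 knockout libraries and 2.63, 15.9 and 4.504 CPM in BRM knockout libraries, against 76.2, 127 and 128 CPM in parental libraries. The genotypes did not overlap, and the change of -3.85 ± 0.66 in BRM knockout was the largest of the 47 genes there (edgeR, adjusted p 0.00196). NUSAP1, a microtubule bundling protein, stood at 72.6, 87.0 and 158 CPM in BRG1 knockout libraries, against 109, 133 and 123 CPM in parental libraries. BRG1 knockout replicate 3 exceeded every parental library for this gene, and its log2 change of -0.20 ± 0.41 was the smallest of the 47 genes in that comparison (edgeR, adjusted p 0.72). With replicate 3 as the only BRG1 knockout library the NUSAP1 change was 0.39.

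The central spindle and cytokinesis genes were KIF20A, KIF23, PRC1, ANLN and ECT2. All 5 fell in BRM knockout, and ANLN and ECT2 fell in BRG1 knockout. ANLN (ENSG00000011426.10, chr7:36389806-36453791, plus strand, GRCh38), which encodes the actin binding protein anillin of the contractile ring, stood at 66.8, 74.9 and 163 CPM in BRG1 knockout libraries and 21.3, 62.3 and 17.9 CPM in BRM knockout libraries, against 306, 549.9 and 490.5 CPM in parental libraries. All knockout libraries lay below all parental ones. The change of ANLN in BRG1 knockout, -2.15 ± 0.52 (edgeR, adjusted p 0.00777), was the largest of the 47 genes there, and in BRM knockout it was -3.73 ± 0.55 (adjusted p 0.000875). PRC1 (ENSG00000198901.13), which bundles antiparallel microtubules, stood at 64.7, 82.7 and 145 CPM in BRG1 knockout libraries and 13.8, 47.5 and 12.3 CPM in BRM knockout libraries, against 168, 213 and 201 CPM in parental libraries. Its genotypes did not overlap, and it changed by -2.99 ± 0.52 in BRM knockout (edgeR, adjusted p 0.00202). Its -0.99 ± 0.49 in BRG1 knockout did not pass (adjusted p 0.128). ECT2, the exchange factor that activates RhoA at the division plane, changed by -1.81 ± 0.41 in BRG1 knockout and -2.46 ± 0.41 in BRM knockout (edgeR, adjusted p 0.00517 and 0.00162). Its difference between the knockouts, 0.65 ± 0.40, did not pass (adjusted p 0.21).

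Anaphase and the separation of sister chromatids were represented by CDC20, UBE2C, PTTG1, ESPL1 and SGO1. All 5 fell in BRM knockout, and PTTG1 and ESPL1 fell in BRG1 knockout. UBE2C (ENSG00000175063.16), the ubiquitin conjugating enzyme of the anaphase promoting complex, had the highest level per length of the 47 genes in parental cells, with a mean of 494 TPM (read counts scaled by transcript length and library total), against 212 TPM in BRG1 knockout and 63.5 TPM in BRM knockout. Its CPM was 67.7, 122 and 96.4 in BRG1 knockout libraries and 13.1, 52.2 and 13.5 in BRM knockout libraries, against 166, 216 and 203 in parental libraries. BRG1 knockout replicate 2 was the highest of its genotype here, and the genotypes did not overlap. UBE2C changed by -2.89 ± 0.51 in BRM knockout (edgeR, adjusted p 0.00217), whereas -1.03 ± 0.48 in BRG1 knockout did not pass (adjusted p 0.111). ESPL1 (ENSG00000135476.11), which encodes separase, stood at 17.5, 20.6 and 34.6 CPM in BRG1 knockout libraries and 5.77, 15.5 and 4.83 CPM in BRM knockout libraries, against 65.8, 96.2 and 94.1 CPM in parental libraries. It changed by -1.82 ± 0.43 in BRG1 knockout (edgeR, adjusted p 0.00666) and by -3.30 ± 0.45 in BRM knockout (adjusted p 0.000581). PTTG1, the securin that holds separase inactive, changed by -1.04 ± 0.26 in BRG1 knockout (edgeR, adjusted p 0.00722) and by -1.58 ± 0.26 in BRM knockout (adjusted p 0.00113), and the 0.53 ± 0.26 between the knockouts did not pass (adjusted p 0.112).

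FOXM1 and MYBL2 encode the transcription factors that activate mitosis genes with MuvB. FOXM1 (ENSG00000111206.12, chr12:2857681-2877155, minus strand, GRCh38) stood at 37.3, 57.4 and 75.6 CPM in BRG1 knockout libraries and 7.86, 21.7 and 7.69 CPM in BRM knockout libraries, against 117, 176 and 171 CPM in parental libraries. The genotypes did not overlap, and FOXM1 changed by -1.44 ± 0.41 in BRG1 knockout (edgeR, adjusted p 0.0166) and by -3.64 ± 0.45 in BRM knockout (adjusted p 0.000356). MYBL2 (ENSG00000101057.15, chr20:43667019-43716496, plus strand, GRCh38) stood at 48.5, 100.5 and 100.9 CPM in BRG1 knockout libraries and 16.04, 8.13 and 4.504 CPM in BRM knockout libraries, against 78.3, 137 and 119.6 CPM in parental libraries. BRG1 knockout replicates 2 and 3 lay inside the parental range. MYBL2 was the exception among the 47 genes in BRM knockout, since replicate 2 was not its highest library. Its change of -0.42 ± 0.43 in BRG1 knockout did not pass (edgeR, adjusted p 0.456), its change in BRM knockout was -3.55 ± 0.48 (adjusted p 0.000561), and the difference of 3.12 ± 0.47 between the knockouts was the largest of the 47 genes (adjusted p 0.000505).

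Some of the spread within a genotype went with transcript length. In BRG1 knockout replicate 3 over the mean of replicates 1 and 2, the median log2 ratio was 0.54 for the 20 mitosis genes with transcripts under 2500 bases, 0.93 for the 19 between 2500 and 4500 bases, and 1.41 for the 8 above 4500 bases. Over all genes tested, the same medians were -0.27, 0.061 and 0.46. The ratios of BRM knockout replicate 2 over replicates 1 and 3 had medians of 1.86, 1.80 and 1.70 in the 3 length classes, against -0.0077, -0.0082 and 0.039 over all genes. Those of parental replicate 1 over replicates 2 and 3 were -0.31, -0.39 and -0.68, against 0.050, 0.039 and 0.0092. ASPM, a spindle pole protein with a long transcript, stood at 36.3, 35.2 and 144 CPM in BRG1 knockout libraries and 8.34, 39.1 and 12.3 CPM in BRM knockout libraries, against 128, 180.1 and 183 CPM in parental libraries. With an offset for GC content and length in the fit, 13 of the 47 genes fell in BRG1 knockout, with 48.6% of all genes called in either direction.

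**Figure D4:**
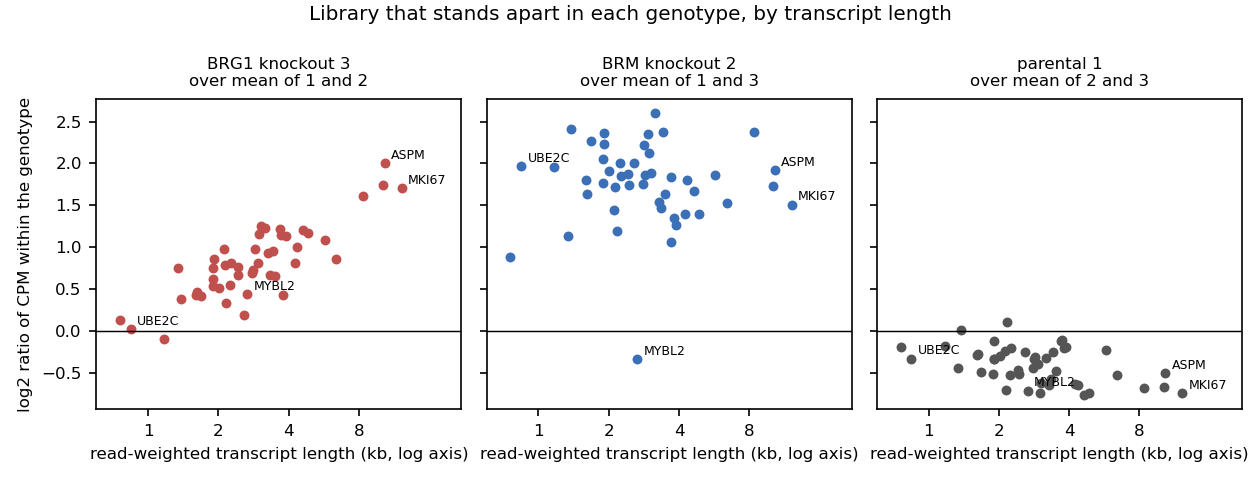
Log2 ratio of each mitosis gene in 1 library over the mean of the other libraries of its genotype, against read-weighted transcript length in kb on a log axis. The library is replicate 3 for BRG1 knockout, replicate 2 for BRM knockout and replicate 1 for parental cells. The BRG1 knockout ratios have medians of 0.54, 0.93 and 1.41 from the shortest to the longest length class, while those of BRM knockout have medians of 1.86, 1.80 and 1.70.

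The split of reads among transcripts is Salmon's estimate and is given as a description. MKI67-201 lacks exon 7 of MKI67-202, the 1080 bases of chr10:128114928-128116007 (GRCh38), and took 73.8, 95.0 and 43.4% of the MKI67 reads in BRG1 knockout libraries and 46.5, 24.3 and 24.5% in BRM knockout libraries, against 13.5, 36.1 and 28.9% in parental libraries. MKI67-202, which holds the exon, stood at 17.1, 2.22 and 133 CPM in BRG1 knockout libraries, against 191, 250.03 and 246 CPM in parental libraries. Every BRG1 knockout library lay below every parental one for MKI67-202, most widely in replicates 1 and 2. ASPM-203, of 10887 bases, also took a smaller share of its gene's reads in those libraries (75.7 and 48.8%) than in replicate 3 (95.8%). Whether these shares go with the differences by transcript length among the BRG1 knockout libraries was not tested. CCNB2-205, whose last exon holds 1139 bases that are in no exon of CCNB2-201, took 48.7, 24.9 and 49.9% of the CCNB2 reads in BRM knockout libraries, against 2.43, 2.38 and 2.04% in parental libraries. Its level was 3.91, 8.26 and 6.58 CPM in BRM knockout libraries, against 2.04, 2.498 and 2.01 CPM in parental libraries, while CCNB2-201 stood at 4.11, 24.9 and 6.55 CPM in BRM knockout libraries, against 81.8, 102 and 96.8 CPM in parental libraries. ANLN-202, which lacks exon 9 of ANLN-201, took 38.7, 32.4 and 33.0% of the ANLN reads in BRG1 knockout libraries, against 23.0, 19.8 and 20.2% in parental libraries.

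Some members share exon bases with other genes, and no label or file header says whether counting used strand. NCAPG shares 33.1% of its exon bases with LCORL and FOXM1 15.9% with ITFG2, both on the opposite strand, and PRC1 shares 57.6% with AC068831.7 and NUSAP1 62.2% with AC087721.2 on the same strand. The levels of these 4 genes are uncertain to that extent. Annotated pseudogenes and the PTTG1 paralogs PTTG2 and PTTG3P held at most 111 reads each over the 9 libraries.

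The genes with and without the promoter letters described above can be set side by side. In BRM knockout the median log2 change was -3.09 for the 29 genes with a core and -2.999 for the 12 without, and in BRG1 knockout it was -1.17 and -1.10. Among genes with a core within 40 to 5 bases before the start, the changes in BRM knockout ran from -3.85 in HMMR to -2.26 in INCENP (edgeR log2 changes). ESPL1 at -3.30 and KIF11 at -3.15 lay between them. Among genes with no core in the window, they ran from -3.55 in MYBL2 to -1.58 in PTTG1, with NCAPH at -3.46 and NEK2 at -2.90.

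Another 59 genes with roles in mitosis were read beside the 47. In BRM knockout 55 of the 59 fell, none rose and 4 did not pass (edgeR, adjusted p under 0.05), where 16.4% of all genes were called lower. The median log2 change of the 59 was -2.60. PKMYT1, a CDK1 inhibitory kinase, changed by -3.93 ± 0.35, CDCA3 by -3.91 ± 0.41, SKA3, a kinetochore subunit, by -3.75 ± 0.45, and GTSE1 by -3.46 ± 0.58. In BRG1 knockout 28 of the 59 fell and 1 rose, where 21.9% of all genes were called lower and 21.6% higher. The median of the 59 was -1.04 there. KIF20B, a cytokinesis motor, changed by -1.88 ± 0.49, GAS2L3 by -1.86 ± 0.57, KNTC1, a kinetochore protein of the checkpoint, by -1.72 ± 0.25, and PBK, a mitotic kinase, by -1.67 ± 0.48. BRG1 knockout was higher than BRM knockout in 46 of the 59 genes and lower in 1, where 21.6% of all genes were called higher and 23.8% lower, with CDCA3 (2.93 ± 0.39), PKMYT1 (2.63 ± 0.34), SKA3 (2.49 ± 0.43) and PIMREG (2.42 ± 0.39) as the widest differences.

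The core subunits of the anaphase promoting complex, which are made throughout the cell cycle, were read in the same way with its coactivator FZR1, 15 genes together. In BRM knockout 4 of the 15 fell and none rose, with a median log2 change of -0.24, and in BRG1 knockout 3 fell and 3 rose, with a median of -0.18 (edgeR). Of all genes, 16.4% were called lower and 21% higher in BRM knockout, and 21.9% lower and 21.6% higher in BRG1 knockout. ANAPC15 fell in both, with log2 changes of -1.55 ± 0.20 in BRM knockout and -0.76 ± 0.19 in BRG1 knockout. Of the 11 genes of MuvB and the DREAM complex, 6 fell and 3 rose in BRM knockout, and 4 fell and 2 rose in BRG1 knockout, beside 37.4% of all genes called in either direction in BRM knockout and 43.5% in BRG1 knockout. RBL1, which encodes the pocket protein p107, changed by -2.13 ± 0.40 in BRM knockout and -1.17 ± 0.39 in BRG1 knockout. LIN54, the MuvB subunit that binds the cell cycle homology region, changed by -1.63 ± 0.27 in BRM knockout and -1.11 ± 0.27 in BRG1 knockout. TFDP2, an E2F partner, changed by 1.01 ± 0.18 in BRM knockout and 1.83 ± 0.19 in BRG1 knockout.

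Of the 7 inhibitors of cyclin dependent kinases, 3 rose and 2 fell in BRM knockout, and 2 rose and 1 fell in BRG1 knockout (edgeR, adjusted p under 0.05). All genes were called in either direction in 37.4% of cases in BRM knockout and 43.5% in BRG1 knockout, so that the count in BRG1 knockout lies near the share of all genes. CDKN1A, which encodes p21, stood at 363, 294 and 408 CPM in BRM knockout libraries, 70.0, 66.9 and 26.5 CPM in BRG1 knockout libraries, and 77.3, 42.3 and 43.9 CPM in parental libraries. Its BRM knockout libraries lay above all others, while the BRG1 knockout and parental ranges overlapped. The log2 change was 2.70 ± 0.37 in BRM knockout (edgeR, adjusted p 0.0005), and BRG1 knockout against BRM knockout gave -2.70 ± 0.37 (adjusted p 0.00022). CDKN1C, which encodes p57, changed by 2.06 ± 0.32 in BRM knockout, and CDKN2C, which encodes p18, by -1.86 ± 0.26. In BRG1 knockout CDKN2B, which encodes p15, changed by 0.93 ± 0.16, CDKN2A, which encodes p16, by 0.91 ± 0.22, and CDKN2D, which encodes p19, by -1.54 ± 0.37.

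DNA replication genes, which act in S phase before the mitosis genes, fell in BRM knockout in 24 of 24 cases with a median log2 change of -2.28, and in BRG1 knockout 10 of the 24 fell and none rose (edgeR, adjusted p under 0.05). Of all genes, 16.4% were called lower in BRM knockout and 21.9% in BRG1 knockout. MCM10, which helps to start replication forks, changed by -3.82 ± 0.44 and TYMS, which makes thymidylate, by -3.28 ± 0.41 in BRM knockout. Their summed level was 1313, 2116 and 2060 CPM in BRG1 knockout libraries and 945, 545 and 411 CPM in BRM knockout libraries, against 2520, 3448 and 3501 CPM in parental libraries. The ratio of this sum to the sum of the 47 mitosis genes was 0.661, 0.800 and 0.479 in BRG1 knockout libraries and 1.96, 0.332 and 0.846 in BRM knockout libraries, against 0.448, 0.441 and 0.476 in parental libraries. The parental libraries held nearly the same ratio, whereas the BRM knockout libraries lay on both sides of it. BRM knockout replicate 2, the highest of its genotype for 46 of the 47 mitosis genes, had the lowest ratio. That sum of mitosis genes is the denominator, so its low ratio adds little, and its replication sum of 545 CPM lay between those of replicates 1 and 3.

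**Figure D5:**
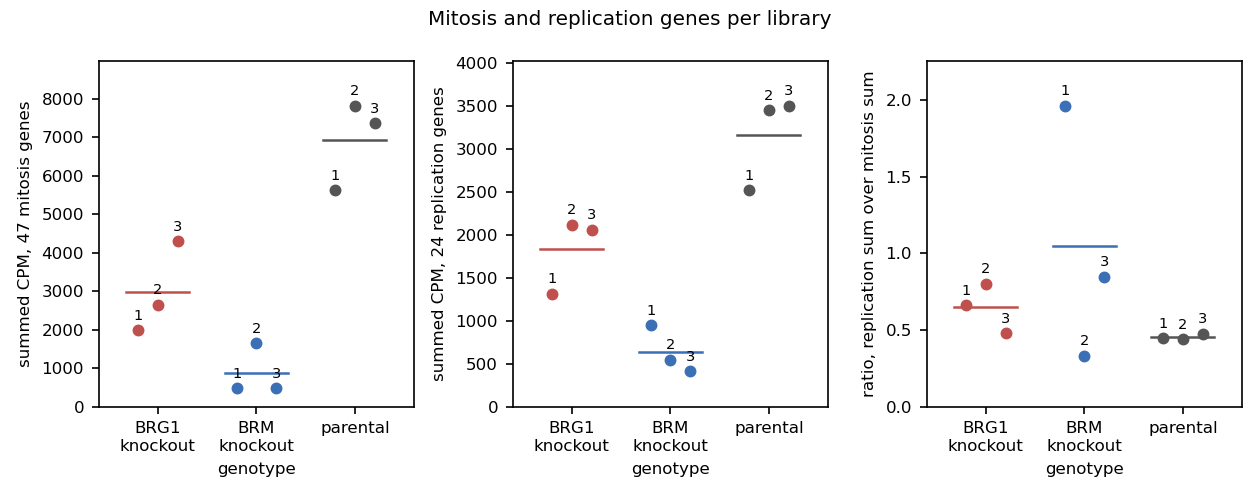
Summed CPM of the 47 mitosis genes, summed CPM of 24 DNA replication genes and the ratio of the replication sum to the mitosis sum in each library (points, numbered by replicate), with lines for the mean of each genotype. The parental ratios lie between 0.441 and 0.476, those of BRG1 knockout between 0.479 and 0.800, and those of BRM knockout between 0.332 and 1.96.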

How the data were processed

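RNA-seq of 9 H358 libraries, 3 per genotype, was analysed from the deposited tables of 1 file a library. These hold estimated counts that the authors' Salmon run gave per transcript, unnormalized, and TPM values scaled to a fixed total per library, per the file headers. Salmon, DESeq2 and hg38 are listed in the submitters' processing notes, and neither notes nor headers state versions, strand or filters.

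Of 203835 transcripts, 203746 were matched by identifier to GENCODE 29 genes, and the other 89 held up to 0.0193% of the reads. Estimated counts were summed per gene, rounded and fitted in edgeR 4.0.16 under R 4.3.3 (filterByExpr, TMM, glmQLFit robust, two-sided). The model held a mean per genotype, with 6 residual degrees of freedom and a common biological coefficient of variation of 0.253, and p-values were adjusted (Benjamini-Hochberg) over 18205 genes. SEs are approximate, from the log2 fold change and its F. TPM was used for levels per length. The fit was tested on simulated counts before use. Those counts had a common spread for all genes and no library that stood apart, so they do not test the fit under such a library. DESeq2 1.42.0 and limma 3.58.1 served as alternatives, and the other settings were normalization, filters, length, GC content, a replicate block and libraries left out.

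The members and lists were chosen with earlier results of these data known. Values in every library are given for MKI67, CCNB1, FOXM1 and MYBL2 and, per role group, for the gene with the highest mean TPM and the gene with the largest change. ASPM, NUSAP1 and CDKN1A were added after their values were seen, as were the length classes, the transcripts described and the ratio of replication to mitosis genes. Changes alone are given for genes called in BRG1 knockout, some of the genes not called elsewhere, the smallest change, and up to 4 called genes per companion list above 1 log2 CPM. Intervals cover counting error only. Replicates of a genotype differed by more than sampling noise (chi-square per degree of freedom 11.2 to 202).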

Additional observations from a re-analysis of the deposited data

How the results depend on the processing

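In BRM knockout against parental cells 46 or 47 of the 47 genes fell under every alternative run, with 20.1 to 48.1% of all genes called in either direction. No median changed sign in any comparison. In BRG1 knockout against parental cells the count of 12 became 6 with no filter on low counts, 23 with DESeq2, 36 with limma voom, 39 with the 6 libraries compared alone, and 0 with BRG1 knockout replicates 1 and 2 left out, where the lone library is assumed to vary like the other genotypes. With the replicate block it was 24 (41.1% of all genes), and 19 with the block and the GC and length offset together (46.7%). No label says whether equal replicate numbers pair the libraries. Correlations of deviations from the genotype mean ran from -0.079 to 0.17 between same-numbered libraries. Between differently numbered libraries they ran from -0.15 to 0.12, so these values cannot settle pairing. The block changed the other counts by less than 1.5 times. Leaving out each library in turn gave 5 to 42 genes in BRG1 knockout (32.8 to 47.3% of all genes called), with medians of -1.54 to -1.03. The medians in BRM knockout were -3.91 to -2.75. In BRG1 against BRM knockout these fits gave 24 to 47 genes (34.6 to 47.8% of all genes), with medians of 1.65 to 2.80. BRG1 against BRM knockout gave 16 genes with no filter (25.5% of all genes called). It gave 19 (50.4%) when BRG1 knockout replicate 3 was dropped together with parental replicate 1, where the median of BRG1 knockout against parental cells was -1.67. With BRG1 knockout replicates 1 and 2 left out that median was -0.75, and NUSAP1 turned to 0.39. The lone library is assumed there to vary like the other genotypes. An alternative chosen after seeing the data dropped BRM knockout replicate 2, BRG1 knockout replicate 3 and parental replicate 1. It gave 46 genes (52.2% of all genes called) with a median of -1.67 in BRG1 knockout, and a median of -4.16 in BRM knockout. The cause was not tested. The lowest count of a member in a library was 23 reads.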

Other observations

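A few genes stood out from their lists in direction, and they were picked after their values were seen. WEE1, the kinase that holds CDK1 inactive before mitosis, was the gene among the 59 other mitosis genes that was lower in BRG1 knockout than in BRM knockout. It stood at 30.4, 34.8 and 46.1 CPM in BRG1 knockout libraries and 70.1, 58.3 and 72.8 CPM in BRM knockout libraries, against 60.5, 54.98 and 53.99 CPM in parental libraries. WEE1 fell in BRG1 knockout with a log2 change of -0.61 ± 0.17 (edgeR, adjusted p 0.0153), and 0.25 ± 0.17 in BRM knockout did not pass (adjusted p 0.282). MAD1L1, the checkpoint partner of MAD2L1, stood at 28.1, 37.2 and 28.6 CPM in BRG1 knockout libraries, against 19.7, 18.9 and 19.1 CPM in parental libraries, and rose there by 0.70 ± 0.15 on the log2 scale (edgeR, adjusted p 0.00389), while MAD2L1 fell.

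TYMS stood at 99.005, 187 and 184 CPM in BRG1 knockout libraries and 16.04, 8.55 and 5.09 CPM in BRM knockout libraries, against 74.2, 110.2 and 104.5 CPM in parental libraries. In BRM knockout its libraries had the same order as those of MYBL2, with replicate 1 the highest, and replicate 1 was the highest of its genotype for 20 of the 24 DNA replication genes. Replicate 2 of BRM knockout was the highest of its genotype for the mitosis genes other than MYBL2.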
